A study of Mus musculus with 36 samples.

Results

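Chromatin accessibility was compared between HP1α knockout (KO) conventional CD4 T cells (Tconv) that had responded to an allogeneic graft in the presence of regulatory T cells (Treg) and KO Tconv that had responded without them. The comparison used all 3 KO libraries with Treg and all 3 KO libraries without Treg, 6 of the 36 ATAC-seq samples of the series, and covered every peak. HP1α is the product of Cbx5, and the KO came from a floxed allele crossed with a CMV-cre strain, so the gene was lost in all tissues and the cells had matured without it. KO and wild type (WT) mice were littermates on a mixed 129/Sv and C57BL/6 background. Naive CD4 T cells were grafted with bone marrow from B6 and B6D2F1 mice into lethally irradiated B6 hosts, alone or with WT Treg expanded ex vivo, and Vβ6+ donor Tconv were sorted from the spleen 3 weeks later. The transferred Treg came from Foxp3-Thy1.1 mice and the sort gate excluded Thy1.1+ cells, so the libraries should hold the responding cells and not the suppressors. The other HP1α libraries came from KO naive cells and from WT naive cells, WT Tconv and WT Tconv with Treg, with 3 libraries per group, and a second set of 18 libraries came from HP1γ mice and their controls.

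ATAC-seq uses a transposase that inserts adapters into DNA not covered by nucleosomes, so that the reads in a peak measure how open that stretch is. When a naive CD4 T cell is activated, enhancers of cytokine and receptor genes open under factors such as AP-1 and NFAT, and later steps fix a helper fate. Treg restrain this response by taking up interleukin-2, by CTLA-4 and by TGF-β and interleukin-10. HP1α binds histone H3 methylated at lysine 9 and helps to keep heterochromatin closed.

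Treg replicates 2 and 3 stood apart from the other KO libraries in depth and in the share of reads near a transcription start site (TSS). The 3 libraries without Treg held 78.3, 72.7 and 23.6 M reads in peaks, and those with Treg held 50.7, 7.12 and 5.73 M. Reads within 1 kb of a protein-coding TSS made up 60.2% to 62.7% without Treg and 62.2%, 53.7% and 53.4% with Treg. Across 71508 peaks, the log2 CPM (counts scaled to a common library size) of Treg replicate 1 correlated with those of the libraries without Treg at r = 0.967 to 0.971, while replicates 2 and 3 correlated with replicates 1 and 2 without Treg at 0.873 to 0.883. With the shallower replicate 3 without Treg they correlated at 0.931 and 0.921, above their correlation with each other (0.916). The peaks of a library are no independent replicates, so these r are descriptions. The study left out Treg replicates 2 and 3 for low signal, so each Treg library is also shown apart. Treg replicate 1 lay within the range of the libraries without Treg in depth and TSS share. In Treg replicates 2 and 3, low depth, a low TSS share and Treg exposure went together, and their parts in the differences of those libraries cannot be told apart.

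The TSS peak of Cbx5 (chr15:103123401-103124490, GRCm39) was at 3.97, 3.88 and 3.83 log2 CPM without Treg and at 4.04, 3.12 and 3.37 with Treg. The groups overlapped, with a log2 fold change of -0.11 ± 0.19 (SE) and an edgeR adjusted p of 0.738. All 6 libraries were KO, and an open promoter does not check the deletion.

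The sorted population was checked by the summed CPM of marker promoters. The 15 promoters of CD4 T cell genes summed to 1940 to 2144 CPM with Treg and 2158 to 2249 without. The 11 Treg promoters summed to 536 to 552 CPM with Treg and 519 to 558 without, and the Foxp3 promoter, which marks Treg, was at 2.7, 4.5 and 5.4 CPM with Treg and 3.0, 2.8 and 3.4 without. For other lineages the sums were higher in Treg replicates 2 and 3 than in replicate 1. B cell promoters summed to 13.5 to 36.4 CPM with Treg against 11.5 to 18.1 without, with no promoter peak at Blnk, Cd79a or Ms4a1. Myeloid promoters summed to 71.0 to 134.6 against 72.8 to 93.4, erythroid ones to 15.4 to 43.1 against 15.3 to 22.6, and stromal and endothelial ones to 40.9 to 59.5 against 42.8 to 44.7. Promoter peaks were found at 3 of 7 B cell genes and 5 of 10 myeloid genes. The remaining values rest on 1 promoter each. They were 5.8 to 14.1 against 3.7 to 8.0 CPM for CD8 T cells (Cd8b1) and 1.4 to 2.6 against 0.8 to 1.8 CPM for NK cells (Klre1). The part of these signals in the results below was not tested.

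With Treg, peaks around the inhibitory receptor gene Pdcd1 and the exhaustion-associated gene Tox were higher, and peaks around Csf2, Il13, Il4 and Ccr4 were lower. Calls needed both an adjusted p below 0.05 and a log2 fold change beyond 1 in size. They were made at 1035 of 71508 peaks (1.45%), at 624 for a rise (0.873%) and at 411 for a fall (0.575%) with Treg, by the quasi-likelihood test of edgeR with its adjustment of the deviances for small counts. Without that adjustment, which is the default of the version used, the way of earlier releases such as that of the study, and was run first, 0 peaks were called, the smallest adjusted p was 0.0755, and 15713 peaks (22.0%) had an unadjusted p under 0.05 against 13525 (18.9%) with it. A fit of the 6 KO libraries alone also called 0 peaks, with 7665 at an unadjusted p under 0.05. The split between directions turned on the scaling, with 505 higher and 84 lower under library size alone, which moved the median of all peaks to 0.25, and 258 higher and 728 lower with offsets fitted on abundance, and also on single libraries. Which test of edgeR the study ran is not given in the sources used here. The calls below are those of 1 version of the test, and the values per library are given with them.

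The number of called peaks turned on Treg replicate 1, the deep library. Without it, the fit called 15092 peaks (10833 higher, 4259 lower). Without Treg replicate 2 it called 618, and without Treg replicate 3 it called 624. Among the libraries without Treg, leaving out replicate 1 gave 755 calls and turned the split, with 229 higher and 526 lower. Leaving out replicate 2 gave 555 calls (329 higher, 226 lower), and leaving out the shallower replicate 3 gave 2966 (2222 higher, 744 lower). The 15 HP1α libraries that the study kept, with Treg replicate 1 alone on the Treg side, gave 392 calls (189 higher, 203 lower). The values of all 6 libraries did not overlap at 6145 peaks (8.59%) that were higher and at 3757 (5.25%) that were lower with Treg.

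**Figure D1:**
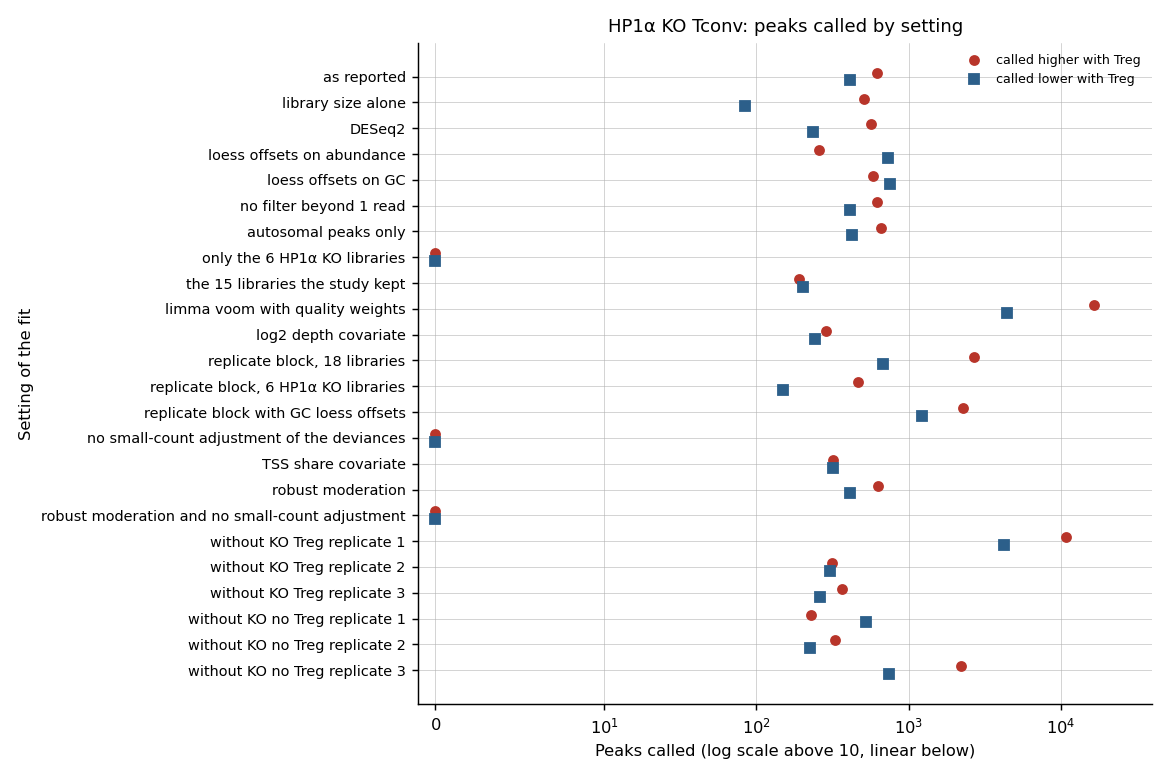
Peaks called higher (red circles) and lower (blue squares) in KO Tconv with Treg, by setting of the fit, on a horizontal axis that is logarithmic above 10 peaks and linear below. The reported setting gave 624 and 411, the test without the small-count adjustment and the fit of the 6 KO libraries alone gave 0 of either, and leaving out Treg replicate 1 gave 10833 and 4259.

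Most called peaks lay away from promoters. Of the peaks called higher, 6.41% (40) were within 1 kb of a TSS, and of those called lower 5.84% (24), against 20.4% of all peaks. Without Treg replicate 1, however, 44.3% of the 4259 peaks called lower and 11.7% of the 10833 called higher were within 1 kb of a TSS, and with limma voom and quality weights, which weighted that library down, 41.1% and 9.38% were. Introns held 59.9% of the peaks called higher and 51.8% of those called lower, against 42.9% of all peaks. The peaks called higher had a median of 1.81, 2.09 and 2.05 log2 CPM in the Treg libraries and 0.05, 0.32 and 1.03 in those without Treg. The peaks called lower had medians of 1.27, 1.85 and 1.74 with Treg and 2.85, 2.99 and 2.45 without. In KO naive cells both sets were low, at medians of -1.47 to -0.96 and -0.69 to -0.24 log2 CPM. Assigned to the nearest protein-coding TSS within 100 kb, 512 of the peaks called higher fell to 384 genes and 366 of those called lower to 300 genes.

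Pdcd1, which encodes the inhibitory receptor PD-1, had 9 peaks, of which 3 were called higher and 0 lower, and 5 of the 9 were higher in every Treg library than in any library without Treg. The leading one (chr1:94002131-94003400, intergenic, 21819 bp from the TSS) was at 1.01, 1.80 and 1.92 log2 CPM without Treg and at 3.38, 3.22 and 3.23 with Treg. The groups were well apart, with a log2 fold change of 1.80 ± 0.21 (SE) and an edgeR adjusted p of 0.000541. The call was lost without the small-count adjustment and in the fit of the 6 KO libraries alone and was made in the other 19 of 21 alternatives, and over all 21 the adjusted p ran from 5.34e-05 to 0.193.

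Tox, which encodes a DNA-binding factor of exhausted T cells, had 31 peaks within 100 kb, of which 11 were called higher and 0 lower. In 15 of the 31 every Treg library was above every library without Treg, and the median log2 fold change of the 31 was 1.21. None of the 31 (0) was among the peaks that opened in HP1γ WT Tconv over naive cells. The leading peak (chr4:6963361-6964220, an intron, 26633 bp from the TSS) was at -1.52, -0.36 and 0.72 log2 CPM without Treg and at 1.57, 2.05 and 2.19 with Treg. Its log2 fold change was 2.27 ± 0.41 (SE), with an edgeR adjusted p of 0.00681, and like that of Pdcd1 the call held in 19 of 21 alternatives. A stronger Tox peak (chr4:6869891-6871220) lay 119633 bp from the TSS, outside the distance used for naming, and was chosen after its values were seen. It was at 1.23, 1.62 and 2.08 log2 CPM without Treg and at 3.43, 3.12 and 3.09 with Treg.

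The peak called higher with the smallest adjusted p among those with a gene within 100 kb was nearest to Cep43, the gene of a centrosomal protein (chr17:8414021-8415470). It was at 1.13, 1.40 and 1.46 log2 CPM without Treg and at 3.65, 2.91 and 3.18 with Treg, a log2 fold change of 2.18 ± 0.21 (SE) with an edgeR adjusted p of 3.82e-05. Tnfsf18, which encodes the ligand of the costimulatory receptor GITR, had a peak (chr1:161307351-161307910) at 0.31, 0.64 and 1.24 without Treg and at 2.91, 2.13 and 1.61 with Treg. That peak had closed on activation in the HP1γ WT cells and had a log2 fold change of 2.05 ± 0.26 (SE) with Treg, with an edgeR adjusted p of 0.000693. The other 9 leading peaks called higher, nearest to Gldc, Rassf10, Unc13b, Csrnp3, Kif13b, Vamp8, Phactr2, Diaph3 and Fam83c, had log2 fold changes from 1.45 (Gldc, an enzyme of glycine breakdown) to 2.66 (Rassf10). Several loci held more than one such peak. Csrnp3 had 6 of 6 peaks called higher, Dclk1, a protein kinase gene, had 6 of 7, and Phactr2, a regulator of phosphatase 1 and actin, had 8 of 17. There were 26 genes with 3 or more peaks called higher and 13 with 3 or more called lower.

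The lower side held peaks of cytokine and chemokine genes. Csf2, which encodes GM-CSF, had 19 peaks, of which 6 were called lower and 0 higher. The leading one (chr11:54130611-54131550, 8943 bp from the TSS) was at 3.84, 3.79 and 3.17 log2 CPM without Treg and at 1.96, 2.80 and 2.54 with Treg. The groups did not overlap, and the log2 fold change was -1.48 ± 0.22 (SE) with an edgeR adjusted p of 0.00151. For Il13, which encodes a type 2 cytokine, 3 of 7 peaks were called lower. The leading one (chr11:53545621-53546630) was at 3.73, 3.74 and 3.17 without Treg and at 1.37, 2.80 and 2.19 with Treg, a log2 fold change of -1.81 ± 0.27 (SE) with an edgeR adjusted p of 0.00167. The fall was steepest in Treg replicate 1. Il4, the signature cytokine gene of Th2 cells in the same region, had 1 of 4 peaks called lower (chr11:53495961-53497120), at 3.45, 3.99 and 3.51 without Treg and 1.74, 2.95 and 2.57 with Treg. In a window of this region chosen after the values were seen (chr11:53000001-55000000), 15 of 226 peaks were called lower and 0 higher. Over all peaks 0.575% were called lower and 0.873% higher. The median log2 fold change of the window was -0.20.

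Ifng, the main cytokine gene of Th1 cells, had 1 of 20 peaks called lower (chr10:118365411-118366200, 88460 bp from the TSS). It was at 1.92, 1.90 and 2.07 log2 CPM without Treg and at 0.57, 1.21 and 1.40 with Treg, a log2 fold change of -1.16 ± 0.23 (SE) with an edgeR adjusted p of 0.00832. The median of its 20 peaks was -0.04, and the call was lost in 7 of 21 alternatives. Ccr4, a chemokine receptor gene of Th2 cells and Treg, had 3 of 17 peaks called lower. Its leading peak (chr9:114295711-114296710) was at 3.59, 3.70 and 3.26 without Treg and at 1.90, 2.61 and 2.47 with Treg, a log2 fold change of -1.45 ± 0.21 (SE) with an edgeR adjusted p of 0.00149. Ccl1, a chemokine gene, had 3 of 16 peaks called lower.

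Grap2, which encodes the T cell receptor adaptor Gads, had a peak (chr15:80476601-80477900) at 4.27, 4.42 and 3.77 log2 CPM without Treg and at 2.70, 2.97 and 2.76 with Treg. All 3 Treg libraries lay below the lowest library without Treg, and the log2 fold change was -1.48 ± 0.21 (SE) with an edgeR adjusted p of 0.00146. Hrh4, the histamine H4 receptor gene, had 4 of 7 peaks called lower, the leading one with a log2 fold change of -2.01 ± 0.23 (SE) and an edgeR adjusted p of 4.74e-05. The other leading peaks called lower were nearest to Tmem247, Rbfox1, Ptpn13, Mrps27, Rbpj, St6gal1 and Dohh, with log2 fold changes from -1.20 (Dohh, an enzyme of hypusine synthesis) to -1.90 (Rbpj, the DNA-binding partner of Notch). The peak with the smallest adjusted p of all (1.9e-05) lay 226929 bp from the TSS of Myo16 (chr8:10549501-10551260), outside the distance used for naming, and fell with Treg, with 4.43, 4.57 and 3.92 without Treg and 1.01, 2.33 and 2.50 with Treg.

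**Figure D2:**
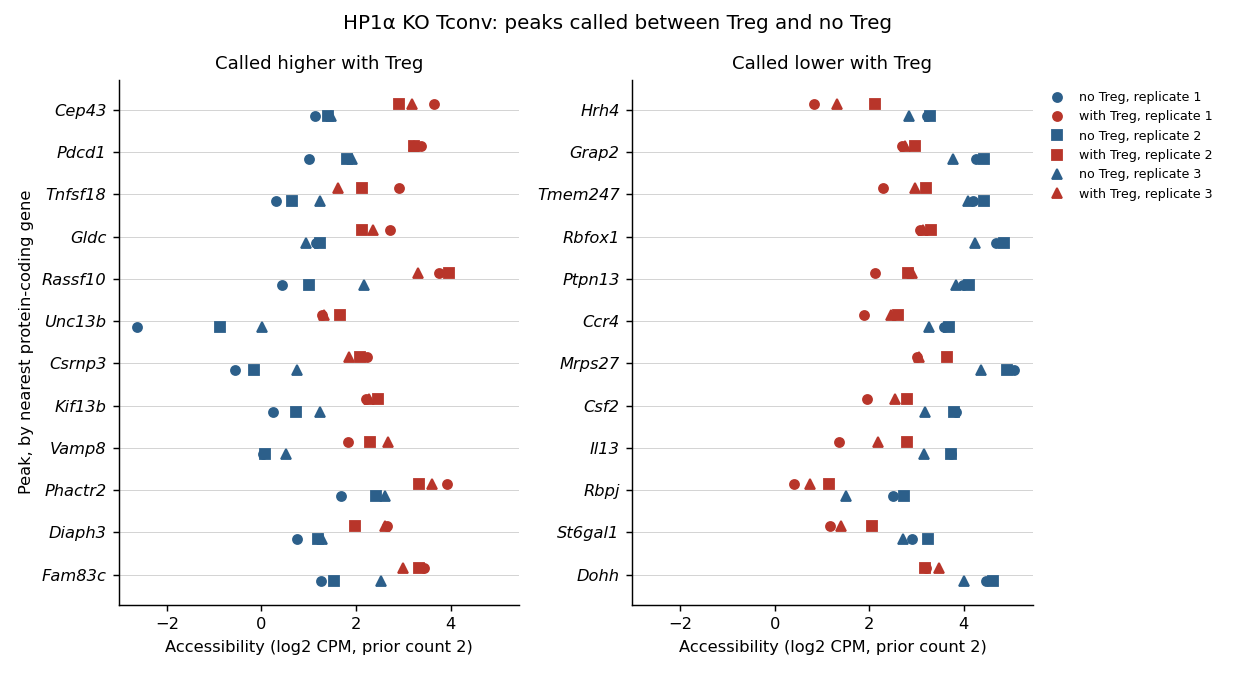
Accessibility in log2 CPM (horizontal axis) of the 12 leading peaks called higher (left) and the 12 called lower (right) in KO Tconv with Treg, labelled by nearest gene, with 1 point for each of the 3 libraries without Treg (blue) and with Treg (red). Peaks were picked for groups that do not overlap, and replicate 1 with Treg is often the library farthest from those without, as at Il13 (1.37 against 2.80 and 2.19 in the other Treg libraries).

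The central 300 bases of 4 of these peaks are given on the plus strand of GRCm39, to show the letters on which the motif counts below rest. Capitals mark matches on either strand. The letters searched were AGATAA for the GATA family and TGTGGTT for RUNX factors. They were GGGANTTCC for NF-kB and AGGTGTGA for T-box factors. Cep43 (chr17:8414595-8414894) and Pdcd1 (chr1:94002615-94002914) were called higher, and Csf2 (chr11:54130930-54131229) and Il13 (chr11:53545975-53546274) were called lower. The last pair was chosen after its values were seen.
Cep43: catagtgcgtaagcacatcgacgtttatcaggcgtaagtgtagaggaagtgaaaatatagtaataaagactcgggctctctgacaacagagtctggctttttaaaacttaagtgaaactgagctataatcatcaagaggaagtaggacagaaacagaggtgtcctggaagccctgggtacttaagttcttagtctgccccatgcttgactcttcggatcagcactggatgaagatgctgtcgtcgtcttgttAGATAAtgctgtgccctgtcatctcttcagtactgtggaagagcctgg
Pdcd1: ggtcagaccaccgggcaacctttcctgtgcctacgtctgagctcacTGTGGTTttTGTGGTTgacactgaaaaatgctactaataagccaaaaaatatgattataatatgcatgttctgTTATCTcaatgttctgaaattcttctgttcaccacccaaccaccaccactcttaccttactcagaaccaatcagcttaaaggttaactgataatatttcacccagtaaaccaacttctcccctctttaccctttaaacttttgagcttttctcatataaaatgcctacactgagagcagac
Csf2: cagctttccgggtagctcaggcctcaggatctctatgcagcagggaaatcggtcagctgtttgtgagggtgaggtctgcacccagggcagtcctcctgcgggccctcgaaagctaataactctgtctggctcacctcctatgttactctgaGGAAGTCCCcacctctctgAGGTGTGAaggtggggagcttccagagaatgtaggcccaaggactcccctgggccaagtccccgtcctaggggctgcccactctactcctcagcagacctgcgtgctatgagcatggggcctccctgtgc
Il13: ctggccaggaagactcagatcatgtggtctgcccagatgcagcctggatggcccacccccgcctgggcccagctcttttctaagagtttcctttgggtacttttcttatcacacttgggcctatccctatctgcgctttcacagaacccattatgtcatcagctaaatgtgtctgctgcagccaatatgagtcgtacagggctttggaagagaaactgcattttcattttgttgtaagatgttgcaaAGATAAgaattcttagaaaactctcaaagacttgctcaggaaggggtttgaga

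The window of Pdcd1 held 2 RUNX matches, starting at bases 47 and 56 of the window, and 1 GATA match at base 120. Cep43 held a GATA match at base 253 and Il13 one at base 248. That of Csf2 held an NF-kB match at base 152 and a T-box match at base 171. A match is a string of letters and does not show that a factor was bound.

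Across gene groups, the calls were spread unevenly. In the list of cytokine and chemokine genes, 13 of 197 peaks were called lower (6.60%, against 0.575% of all peaks) and 0 higher. They came from Csf2, Ifng, Il13, Il3, Il4 and Il5. Its median log2 fold change was -0.16, against 0.07 over all peaks, with 0.03, -0.26 and -0.30 in Treg replicates 1, 2 and 3, so the list as a whole was not lower in the deep library. In the list of inhibitory receptor and exhaustion genes, 14 of 196 peaks were called higher (7.14%, against 0.873% of all peaks), all at Pdcd1 and Tox. In the same list 1 peak was called lower (0.510%, against 0.575%), at Tigit. The Tigit peak was at 1.46, 2.75 and 1.95 log2 CPM without Treg and at -0.22, 1.21 and 1.61 with Treg, so the groups overlapped. With peaks kept only within 10 kb of the TSS, 0 of 74 peaks of the exhaustion list were called. Of the cytokine list 5 of 66 were called (7.58%), all lower.

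The counts of both lists turned on single libraries. Without Treg replicate 1, 30 of the 196 peaks of the exhaustion list were called higher (15.3%), against 15.1% of all peaks in that fit, and 12 were called lower. In that fit 25 of the 197 cytokine peaks were called lower (12.7%), against 5.96% of all peaks, and 12 were called higher. With another of the 6 KO libraries left out, the exhaustion list had 3 peaks called higher without replicate 1 of the cells without Treg (1.53%, against 0.320% of all peaks in that fit) and up to 26 without replicate 3 of those cells (13.3%, against 3.11%). The cytokine list had 11 called lower without replicate 2 of those cells (5.58%, against 0.316%) and up to 17 without their replicate 3 (8.63%, against 1.04%).

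Other members of the exhaustion list did not pass the call. Havcr2, which encodes TIM-3, was at 4.17, 4.61 and 4.09 log2 CPM at its TSS without Treg and 3.36, 3.56 and 3.84 with Treg, a log2 fold change of -0.85 that was under the threshold of 1 (edgeR adjusted p = 0.0169). At Lag3, another inhibitory receptor gene, the log2 fold change of the leading peak was -0.17 (edgeR adjusted p = 0.6). Ctla4 was at 2.08, 1.63 and 1.56 without Treg and 2.77, 2.55 and 2.47 with Treg, with 0.87 and an edgeR adjusted p of 0.0764. A peak 18010 bp from the TSS of Il10, the gene of a suppressive cytokine, was at 2.70, 2.63 and 2.86 without Treg and 3.64, 3.83 and 3.44 with Treg. Its groups did not overlap, but the log2 fold change of 0.94 was just under the threshold (edgeR adjusted p = 0.0196).

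The lists of helper fates are set beside the shares called over all peaks, 0.873% higher and 0.575% lower. In the Th1 list, 3 of 215 peaks were called lower (1.40%), all at Bhlhe40, a transcription factor gene needed for GM-CSF production, and 1 higher (0.465%), at Stat4, where the groups overlapped. Without Treg replicate 1, 29 were called lower (13.5%, against 5.96% of all peaks in that fit) and 18 higher (8.37%, against 15.1%), while 1 was called lower without Treg replicate 2 or without Treg replicate 3. Without replicate 1 of the cells without Treg and with the 15 kept libraries, 0 were called lower, and without replicate 3 of those cells 6 were (2.79%, against 1.04%). The leading peak of Tbx21, the gene of the Th1 factor T-bet, had a log2 fold change of -0.52 (edgeR adjusted p = 0.19). In the Th17 list, 2 of 187 peaks were called higher (1.07%), at Hif1a and Il6st, and 1 lower (0.535%), at Maf. The Il6st call was lost in 17 of 21 alternatives, with adjusted p values up to 0.241, and that of Maf in 8, with values up to 0.242. At Il17a the peak was at 3.49 log2 CPM in replicate 1 without Treg and at -0.15 and 0.57 in the other libraries without Treg, against 0.95, 1.76 and 1.61 with Treg, so its value rests on 1 library. The leading peak of Il2 had -0.49 with an edgeR adjusted p of 0.238.

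In the anergy list, 1 of 169 peaks was called higher (0.592%) and 2 lower (1.18%), against 0.873% and 0.575% of all peaks. The peak higher was at Nt5e, which encodes the adenosine-producing ectoenzyme CD73, with 1.83, 1.66 and 1.73 log2 CPM without Treg and 2.88, 3.54 and 2.92 with Treg. Its log2 fold change was 1.29 ± 0.26 (SE) with an edgeR adjusted p of 0.0117. Among the peaks lower was that at Nfatc2, the gene of an NFAT factor. In the list of naive and memory genes, 1 of 455 peaks was called higher (Foxp1) and 1 lower, at 21232 bp from the TSS of Tcf7, the gene of the memory factor TCF-1. That Tcf7 peak was at 3.82, 3.29 and 3.12 without Treg and 2.27, 2.42 and 2.39 with Treg, while the median log2 fold change of the 22 Tcf7 peaks was 0.50. The median of the naive and memory list was 0.43, from 0.09 in Treg replicate 1 and 0.95 and 0.89 in replicates 2 and 3, and 134 of its peaks were called higher (29.5%, against 15.1% of all peaks) and 21 lower without Treg replicate 1, with 202 higher (44.4%, against 23.3%) under voom and 10 higher (2.20%, against 3.11%) without replicate 3 of the cells without Treg. The leading peaks of Ccr7 (1.27) and Il7r (-0.82) did not pass the call.

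Genes that Treg express highly are also used by activated Tconv. In the Treg list, 4 of 104 peaks were called lower (3.85%) and 0 higher, against 0.575% and 0.873% of all peaks. Those lower were at Il2ra, which encodes the high-affinity interleukin-2 receptor chain, and at Il1rl1, the interleukin-33 receptor gene, where the groups overlapped. The Il2ra peak was at 3.76, 3.71 and 3.02 log2 CPM without Treg and 2.65, 2.39 and 2.10 with Treg, a log2 fold change of -1.07 ± 0.23 (SE) with an edgeR adjusted p of 0.0197. That call was lost in 10 of 21 alternatives, with adjusted p values up to 0.232. The number of Treg list peaks called lower was 8 without Treg replicate 1 (7.69%, against 5.96% of all peaks in that fit) and 1 without Treg replicate 3. It was 2 without replicate 1 of the cells without Treg, 0 without their replicate 2 and 6 without their replicate 3, where 0.736%, 0.316% and 1.04% of all peaks were called lower. In the list of receivers of suppressive signals, 3 of 471 peaks were called lower (0.637%, against 0.575% of all peaks) and 0 higher. They were at Pde4b, which degrades cyclic AMP, and at Smad3, the TGF-β signal transducer. The leading Smad3 peak had a log2 fold change of -1.64 ± 0.28 (SE) with an edgeR adjusted p of 0.00353. Among activation transcription factors, 1 of 219 peaks was called higher (Jun) and 1 lower (Nfkb1), 0.457% each way. The cell cycle list had 1 of 149 peaks called lower (0.671%, Cdkn1a), and the housekeeping list had 0 of 68 called. The T cell receptor and CD4 list had 1 of 183 higher (0.546%, Cd247, with overlapping groups) and 2 lower (1.09%, Cd2). In the list of HP1 and H3K9 methylation genes, 1 of 58 peaks was called higher (1.72%). It was at Atrx, where Treg replicates 2 and 3 held 3 and 7 reads and the groups overlapped.

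Many of these calls at single list genes were lost when 1 library was left out. Without Treg replicate 1, the leading peaks of Atrx, Cd247, Ifng, Il1rl1, Il4, Il6st, Maf, Stat4 and Tigit lost their call. Without Treg replicate 2, those of Foxp1, Il2ra, Il6st, Jun, Nfatc2 and Pde4b lost it. Without Treg replicate 3, the calls of Cd247, Foxp1, Il1rl1, Il2ra, Il6st, Jun, Maf, Pde4b and Stat4 were lost. Among the cells without Treg, leaving out replicate 1 ended the calls of Atrx, Bhlhe40, Cd247, Foxp1, Il2ra, Il6st, Jun, Nfatc2, Pde4b, Stat4 and Tcf7. Leaving out replicate 2 of those cells ended the calls of Atrx, Foxp1, Il1rl1, Il2ra, Il6st, Jun, Maf, Nfatc2, Pde4b and Tigit. The leading peaks of Csf2, Ccr4, Il13, Nt5e, Pdcd1, Smad3 and Tox kept their call with any 1 of the 6 libraries left out.

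The fit without Treg replicate 1, which called 15.1% of all peaks higher and 5.96% lower, also raised the counts of the other lists. It called 12.8% of the Th17 list higher and 2.67% lower, 9.47% and 4.14% of the anergy list, 15.9% and 4.88% of the receivers of suppressive signals and 15.1% and 4.57% of the activation factors. The cell cycle list had 6.71% and 8.72%, the HP1 and H3K9 methylation list 10.3% and 10.3%, the T cell receptor and CD4 list 6.01% and 3.83%, and the housekeeping list 5.88% and 8.82%.

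In 3 lists taken from the study, the exhaustion signature had 24 of 911 peaks called higher (2.63%) and 8 lower (0.878%), against 0.873% and 0.575% of all peaks, with Tox and Pdcd1 again among its genes. Within 10 kb of the TSS, 2 of its 348 peaks were called higher and 2 lower (0.575% each way). The Th1 signature had 5 of 721 called higher and 5 lower (0.693% each way). The list of HP1α genes, which the study chose on these samples and is therefore no independent evidence of a direction, had 3 of 393 called higher and 3 lower (0.763% each way). Its median was -0.22, with -0.16, -0.34 and -0.32 in Treg replicates 1, 2 and 3, and 13.7% of its peaks were lower and 1.78% higher without overlap of the groups, against 5.25% and 8.59% of all peaks.

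**Figure D3:**
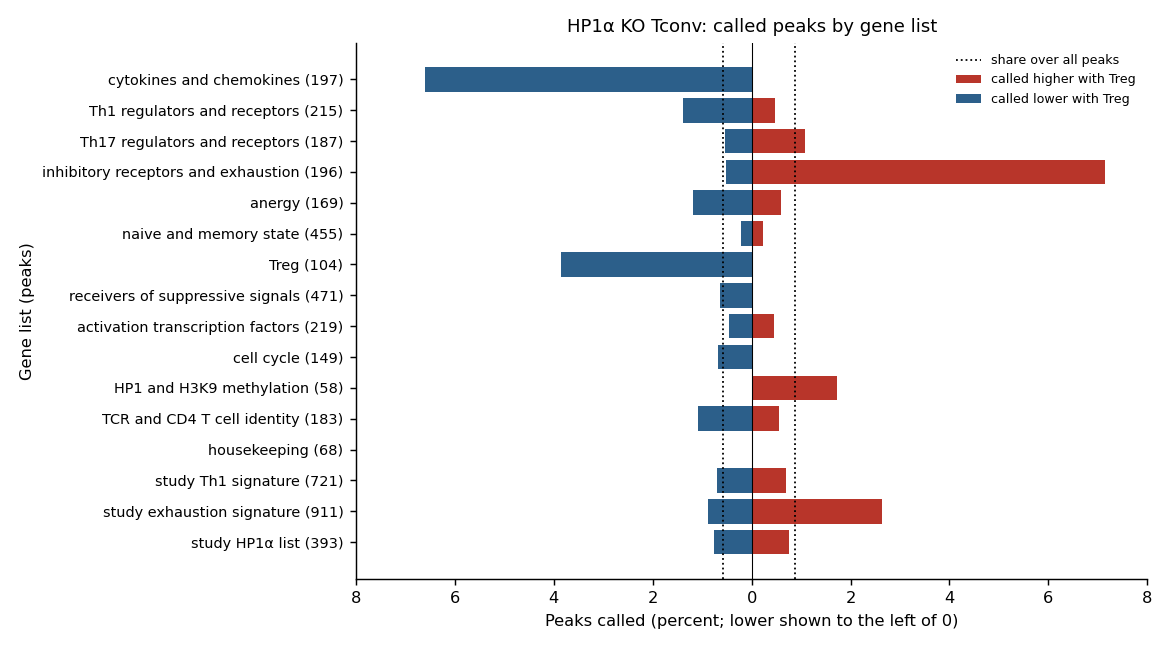
Share of the peaks of each gene list (number of peaks in brackets) that were called higher (red, right of 0) or lower (blue, left of 0) in KO Tconv with Treg, in percent, with dotted lines at the shares over all peaks (0.873% and 0.575%). The list of cytokine genes reached 6.60% on the lower side and the exhaustion list 7.14% on the higher side.

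Whether Treg touched the peaks that open on activation was asked with peak sets from the HP1γ libraries, which share no sample with this comparison. In HP1γ WT cells, 17513 of the peaks (24.5%) were called higher in Tconv than in naive cells and 15713 (22.0%) lower. Of the peaks called lower with Treg in KO Tconv, 83.5% (343) had opened on activation and 0.487% (2) had closed. Of those called higher with Treg, 59.1% (369) had opened and 10.7% (67) had closed. These shares turned on Treg replicate 1 and on the test. Of the peaks called higher, 26.5% had opened and 44.9% had closed without Treg replicate 1, 27.8% and 45.2% with DESeq2, and 23.2% and 49.5% with limma voom and quality weights. Of the peaks called lower, 24.5% had opened without Treg replicate 1, 67.4% with DESeq2 and 27.6% with voom. The activation-opened set as a whole had a median log2 fold change of 0.03 against 0.07 over all peaks, with -0.07, 0.20 and 0.18 in Treg replicates 1, 2 and 3, so calls went both ways within it. In bulk samples, a change in the share of cells with an open site and a change in openness per cell cannot be told apart.

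The activation-closed set had a median of 0.54, but its Treg libraries differed. Replicate 1 was at 0.13, and replicates 2 and 3 were at 1.17 and 1.12. The libraries without Treg differed as well, at -0.29, -0.41 and 0.73, each against the mean of the other libraries without Treg. The median log2 CPM of the set was 0.16, 0.08 and 0.97 without Treg and 0.48, 1.62 and 1.61 with Treg. The groups overlapped, and the two-sided exact permutation p of the library medians was 0.2, where 3 against 3 cannot go below 0.10. The median of 0.54 fell to 0.10 with log2 depth as a covariate, to 0.14 with the TSS share of the reads as a covariate and to 0.16 with the 15 kept libraries, and was 1.20 without Treg replicate 1. Peaks within 1 kb of a TSS had a median of -0.28, with -0.02 in Treg replicate 1 and -0.63 and -0.60 in replicates 2 and 3, while the other peaks were at 0.16. The value of -0.28 became 0.01 with abundance offsets and with the 15 kept libraries, -0.03 with the TSS share covariate and -0.09 with the depth covariate, and was -0.62 without Treg replicate 1. The share of reads near TSS was lowest in the same libraries, at 53.7% and 53.4%.

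**Figure D4:**
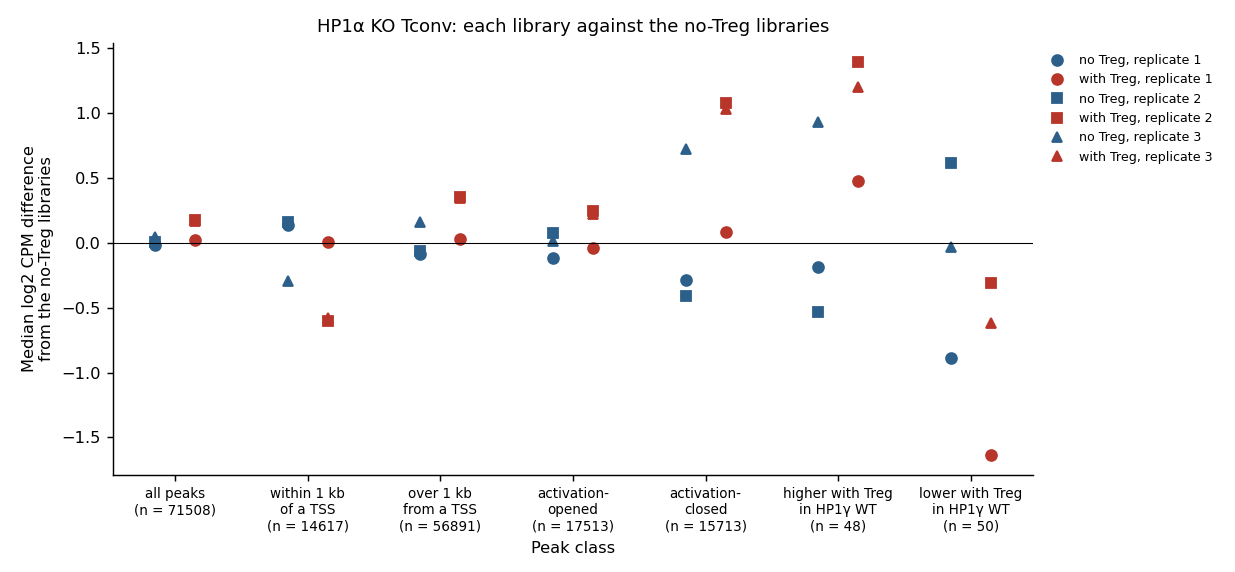
Median difference in log2 CPM (vertical axis), by peak class, with 1 point for each KO library. Libraries with Treg (red) are set against the mean of all libraries without Treg. Each library without Treg (blue) is set against the mean of the other libraries without Treg, so the colours have different baselines. In the activation-closed class Treg replicates 2 and 3 lie far above replicate 1, and replicate 3 without Treg lies at 0.73.

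Motif letters differed between the peaks called in either direction. The central 300 bases of each peak were searched on both strands for 10 short motifs. The AGATAA letters of the GATA family, whose member GATA3 drives Th2 genes, were in 34.5% (142) of the peaks called lower, against 13.6% of all peaks, 17.1% of the activation-opened peaks and 13.5% (84) of the peaks called higher. TGGAAA (NFAT) was in 39.4% of the peaks called higher and 25.5% of those called lower, against 23.7% of all and 27.7% of the opened peaks. TGANTCA (AP-1) was in 24.7% and 17.8%, against 13.0% of all and 22.2% of the opened peaks. TGTGGTT (RUNX) was in 21.0% and 23.6%, against 12.9% of all and 17.9% of the opened peaks. CTTTGAT (TCF/LEF) was in 9.62% and 4.87%, against 5.77% of all and 5.01% of the opened peaks. GAAANNGAA (IRF) was in 14.4% and 9.49%, against 10.7% of all and 11.6% of the opened peaks.

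The GATA share rested on Treg replicate 1 within the fit. It was 36.2% of the peaks called lower with replicate 1 alone and 38.2% of those called without replicate 2 and of those called without replicate 3. Without replicate 1 it was 13.1% of 4259 peaks. The other motifs moved with that library as well. Without it, NFAT letters were in 25.8% of the peaks called higher, AP-1 letters in 15.8%, RUNX letters in 11.6%, TCF/LEF letters in 7.23% and IRF letters in 10.9%, and of the peaks called lower 13.3% held RUNX letters and 9.91% AP-1 letters. Per library, activation-opened peaks with AGATAA had a median log2 fold change of -0.21 against -0.05 for those without the letters in Treg replicate 1, of 0.00 against 0.24 in replicate 2 and of 0.00 against 0.22 in replicate 3. The peaks with the letters were thus the lower ones in each Treg library, and the 3 values share their control libraries. In HP1γ WT Tconv, the peaks called lower with Treg held the letters in 38.0% of 50.

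**Figure D5:**
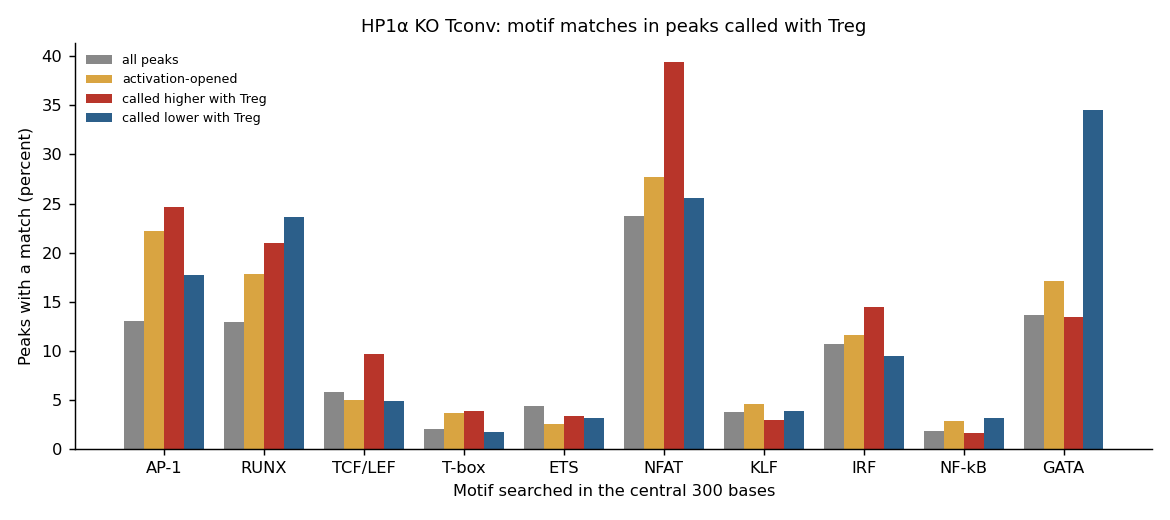
Share of peaks with a match to each motif in the central 300 bases (vertical axis, percent), for all peaks (grey), activation-opened peaks (yellow) and peaks called higher (red) or lower (blue) in KO Tconv with Treg. GATA matches reach 34.5% of the peaks called lower, and NFAT matches 39.4% of those called higher, against 13.1% and 25.8% without Treg replicate 1.

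Each Treg library was then set alone against the 3 libraries without Treg, which the 3 comparisons share. A lone library adds nothing to the estimate of the spread and was assumed to vary like the other groups. Replicate 1 gave 508 called peaks (0.710%), 215 higher (0.301%) and 293 lower (0.410%). Replicate 2 gave 5 (0.00699%) and replicate 3 gave 1 (0.00140%), all higher. These small counts turned on the test, the scaling and the controls. DESeq2 called 7946 peaks with replicate 2 and 8096 with replicate 3, library size alone gave 2926 with replicate 2, and leaving out replicate 3 of the cells without Treg gave 13000 and 7726. The shallow libraries had more peaks at an unadjusted p under 0.05, 21466 (30.0%) and 17699 (24.8%), than replicate 1 with 6270 (8.77%). The peaks called higher with replicate 1 had median log2 fold changes of 1.57, 1.09 and 1.11 in replicates 1, 2 and 3, and those called lower had -1.61, -0.61 and -0.75. The first value of each trio chose the peaks and is given as a description.

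At single peaks the libraries could be compared directly. The Pdcd1 peak had log2 fold changes of 1.85, 1.69 and 1.69 in replicates 1, 2 and 3 against the shared controls, and the Tox peak 2.08, 2.57 and 2.71. The Csf2 peak had -1.74, -0.89 and -1.16, the Il13 peak -2.27, -0.83 and -1.44, and the Ccr4 peak -1.68, -0.96 and -1.11. Replicates 2 and 3 were thus on the same side as replicate 1 at each of these peaks, which were chosen for groups that do not overlap. For the cytokine peaks the falls in replicates 2 and 3 were smaller than in replicate 1. Read numbers limit the shallow libraries, since the Il13 peak had 122, 64 and 33 reads in the 3 Treg libraries and 917, 855 and 224 in the controls.

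WT Tconv were compared to ask whether the response to Treg differed with the genotype. The difference of the Treg effect between KO and WT, tested in the fit of all 18 HP1α libraries, was called at 0 peaks by edgeR, with a smallest adjusted p of 0.111, with 4953 peaks (6.93%) at an unadjusted p under 0.05, and with 29 called by DESeq2. At the Pdcd1 peak the log2 fold change was 1.83 in WT and at the leading Tox peak it was 2.72, against 1.80 and 2.27 in KO. The WT Treg libraries held 12.7, 1.49 and 3.20 M reads in peaks, fewer than any KO library but Treg replicates 2 and 3, and 8853 peaks had no read in WT Treg replicate 2. At the Csf2 peak it was -2.50 in WT and -1.48 in KO. At the Ccr4 peak it was -0.31 in WT and -1.45 in KO, with an adjusted p of 0.67 for the difference. These p values do not show that KO and WT responded alike.

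An independent set of Treg peaks came from HP1γ WT Tconv with and without Treg, chosen after values were seen. In HP1α KO Tconv, the 48 peaks that were higher there (0.0671%) had a median log2 fold change of 0.90 with Treg, and 6 of them were called higher. The median was -1.23 for the 50 that were lower there (0.0699%), of which 16 were called lower. By Treg library, the medians were 0.55, 1.48 and 1.31 for the first set and -1.77, -0.43 and -0.67 for the second. The libraries without Treg also spread widely, each measured from the mean of the other libraries without Treg. They were at -0.19, -0.54 and 0.93 on the first set and at -0.89, 0.62 and -0.03 on the second. The groups overlapped, with a two-sided exact permutation p of 0.2 for both sets.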

How the data were processed

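ATAC-seq reads per peak were measured in 36 samples, of which the 6 HP1α KO Tconv libraries are described here. The deposited table holds raw counts. Per the study's methods, the authors trimmed reads (Trim Galore 0.6.7), aligned them with BWA to GRCm39, removed duplicates, blacklisted regions and low mapping qualities, called open regions in each sample, merged them over samples and counted reads per merged peak with featureCounts 2.0.3. A read spanning several peaks was counted in each. Of 71512 intervals, 3 had no width and were left out.

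Counts of the 18 HP1α libraries were filtered with filterByExpr, scaled by TMM and fitted in R 4.3.3 with edgeR 4.0.16, whose quasi-likelihood F test, two-sided, compared the groups, with Benjamini-Hochberg adjustment over all peaks. The test was run in 4 versions, with and without its small-count adjustment and robust moderation. The default, without either, was run first and called 0 peaks. The version reported, with the adjustment and no robust moderation, was taken after these counts were seen, because it gave the call numbers of an earlier processing of the same files. The median dispersion it used was 0.0126, against 0.0919 for the default. On simulated data with 200 peaks changed by a log2 value of 2, it called 76% of them and 16 unchanged peaks. The simulated libraries shared the same profile, with no differences between groups or in TSS share beyond these changes. The default was not simulated, so the choice of version cannot rest on this. Log2 CPM used a prior count of 2, SE is the log2 fold change over the square root of F, and peaks went to the nearest protein-coding TSS of GENCODE vM39 within 100 kb. Named were Cbx5, the 12 peaks per direction with the smallest p among called peaks with groups that do not overlap, up to 4 genes per list, and fixed T cell genes. The peaks compared, the lists and the tests were chosen with earlier results of these data known. DESeq2 1.42.0, limma 3.58.1 and other settings were alternatives. Whether replicate numbers pair the samples could not be told, and the reported fit did not pair them. Nothing in the sources says that libraries came from separate mice, so p-values measure the spread between these samples. No other per-sample columns were used. A few genes that the naming rule covers are not reported here.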

Additional observations from a re-analysis of the deposited data

How the results depend on the processing

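Of 86 named peaks, 81 kept their direction under every setting tried, but many were chosen for groups that do not overlap, which largely fixes the direction. The reported fit called 45 of the 86, and all 45 lost the call without the small-count adjustment and in the fit of the 6 KO libraries alone. Against 1035 called peaks, there were 589 under library size alone, 392 with the 15 libraries that the study kept, 529 with log2 depth as a covariate, 636 with the TSS share of the reads as a covariate, 21088 with limma voom and quality weights, and 0 with the 6 KO libraries alone and 0 without the small-count adjustment, with or without robust moderation. Quality weights were 0.0992 for Treg replicate 1 and 1.57 and 1.60 for replicates 2 and 3. Leaving out 1 library gave 555 (without replicate 2 of the cells without Treg) to 15092 (without Treg replicate 1). The split of 624 higher and 411 lower became 562 and 236 with DESeq2, 580 and 757 with offsets on GC, and 229 and 526 without replicate 1 of the cells without Treg. The covariate of TSS share and the versions of the test were chosen after seeing the data. The causes were not tested.

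With the replicate number as a replicate block, 3367 peaks were called in the fit of 18 libraries, 612 in that of 6 and 3481 with GC offsets. The deviations of samples with the same number correlated at 0.51, -0.33 and 0.44, and those of samples with different numbers at -0.71 to 0.51. Whether the numbers pair the samples cannot be told from these values.

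The median of activation-opened peaks, 0.03, became 0.2148 under library size alone, -0.2035 with abundance offsets and 0.2181 with voom, and ran from 0.00 to 0.2331 with 1 library left out. That of activation-closed peaks, 0.54, became 1.2056 with voom, 0.1042 with the depth covariate, 0.1449 with the TSS share covariate and 0.1628 with the 15 kept libraries, and ran from 0.3777 to 1.2023 with 1 library left out. That of peaks within 1 kb of a TSS, -0.28, became -0.6314 with voom, 0.0085 with abundance offsets, 0.0098 with the 15 kept libraries, -0.0324 with the TSS share covariate and -0.0897 with the depth covariate. The difference between KO and WT, with 0 called peaks, gave 29 with DESeq2, 6 with abundance offsets, 33 with the 15 kept libraries, 37 with the replicate block and GC offsets, and 0 to 45 with 1 library left out.

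Treg replicate 1 alone (508) gave 332 under library size alone, 69 with DESeq2, 222 with abundance offsets, 0 without the small-count adjustment and 405 to 809 with 1 control left out. Replicate 2 alone (5) gave 2926 under library size alone, 7946 with DESeq2, 0 with abundance offsets, 1 with GC offsets, 0 with the depth covariate, 0 without the small-count adjustment and 0 to 13000 with 1 control left out. Replicate 3 alone (1) gave 8096 with DESeq2, 4 with abundance offsets, 0 with the depth covariate, 1229 without the small-count adjustment and 0 to 7726 with 1 control left out. The 54 calls over the 13 role lists became 26 with the nearest TSS of any gene and 13 within 10 kb.

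The sign turned at 5 named peaks. Lag3 went from -0.17 to 0.0019 under library size alone, 0.0128 with the 15 kept libraries and from -0.5304 to 0.0101 with 1 library left out. Il17a went from -1.21 to 0.3868 with voom and from -1.7917 to 1.1371 (without replicate 1 of the cells without Treg) with 1 left out. Foxp3 went from -0.66 to 0.8013 with voom, 0.1531 with the replicate block in 6 libraries, 0.4503 without replicate 2 of the cells without Treg, and from -1.3596 to 0.5022 (without Treg replicate 1) with 1 left out. With 1 left out, Atrx ran from -0.0053 (without Treg replicate 1) to 1.8263 and Ehmt1 from -0.0413 (likewise) to 0.6597. The 5.73 to 7.12 M reads of the shallow Treg libraries limit what single peaks can show there.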

Other observations

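Further loci held several called peaks, and they are named here after their values were seen. On the higher side, Ppp2r5c, a regulatory subunit gene of phosphatase 2A, had 7 of 29 peaks called, Cacna1d, a calcium channel gene, had 6 of 30, and Trps1, the gene of a GATA-type zinc finger protein, had 4 of 14. Ubash3b, a phosphatase gene that restrains T cell receptor signalling, had 4 of 46, with a median log2 fold change of 0.64 over the 46. Spry2, an inhibitor of receptor tyrosine kinase signalling, had 3 of 4, and Nab1, a corepressor of EGR factors, had 3 of 20. On the lower side, Eps8l3 had 4 of 14 peaks called, Bbs9, a cilium gene, had 4 of 15, and Plxnc1, a semaphorin receptor gene, had 3 of 19.

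At 4 genes of the T cell response, chosen after their values were seen, a peak was lower with Treg and its groups did not overlap, but the fold change was under the threshold. At Gata3, the gene of the Th2 factor, the leading peak was at 5.52, 5.69 and 5.47 log2 CPM without Treg and 4.86, 5.03 and 5.17 with Treg, a log2 fold change of -0.60 (edgeR adjusted p = 0.0507). At Il2rb, an interleukin-2 receptor chain gene, it was at 3.82, 3.96 and 3.93 without Treg and 3.05, 3.12 and 2.78 with Treg, and at Tgfbr2, a TGF-β receptor gene, at 4.35, 4.18 and 3.61 without and 3.25, 3.10 and 3.20 with Treg. The Tgfbr2 locus did not follow that peak, with a median log2 fold change of 0.35 over 45 peaks, of which 5 were higher and 2 lower without overlap. The log2 fold changes of the Il2rb and Tgfbr2 peaks were -0.88 and -0.92, with edgeR adjusted p values of 0.0171 and 0.0186. At Egr3, a factor gene tied to anergy, the log2 fold change was -0.86 (edgeR adjusted p = 0.0205).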
